A study of Rattus norvegicus with 59 samples.

Results

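Genes of the complement system, of fibrinogen and of other plasma proteins were followed in rat kidney by name: C1qb, C1s, C3, C4b, Fga, Fgb, Fgg, Serpinc1, Apcs and Pzp. All probes that the annotation of the array pairs with these 10 symbols were taken, a rule that uses names and no measured value. Of 10 genes, 8 had 1 probe each among the 22523 probes of the Illumina RatRef-12 array, which the annotation pairs with 13337 gene symbols, and C3 and Fga were not analysed here. RNA of whole kidneys came from 59 rats of the Fawn-Hooded Hypertensive (FHH) strain, whose animals become hypertensive and lose kidney function with age, with 1 array per rat. The tested agent was pyrrolidine dithiocarbamate (PDTC), an inhibitor of the transcription factor NF-kB, which dams drank at 150 mg per L from 2 weeks before until 4 weeks after birth. PDTC pups of 2 days were 4 females and 4 males, and untreated pups were 5 females and 5 males. At 2 weeks there were 6 PDTC females, 4 PDTC males, 5 untreated females and 6 untreated males. Adults were 5 rats in each of the 4 groups, females of 42 weeks and males of 36 weeks, so the adult sexes also differed in age and adult PDTC rats were no longer exposed. All 12 groups were of the FHH strain, which limits every statement to rats of that strain. Which rats were littermates is unknown here, and each p-value therefore reflects only variation among the sampled rats.

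Complement is a cascade of blood proteins that marks microbes, immune complexes and dying cells. In its classical pathway C1q, of which C1qb encodes a chain, recognises the target, the protease C1s cleaves C4, the product of C4b, and C3 is cleaved next. Fibrinogen is the soluble protein that thrombin turns into the fibrin of a clot, and Fga, Fgb and Fgg encode its chains. Antithrombin, encoded by Serpinc1, inhibits thrombin. Apcs encodes serum amyloid P component, a pentraxin that binds amyloid and debris, and Pzp encodes a protease inhibitor of the alpha-macroglobulin family. Most of these proteins in blood are made by hepatocytes, and C1q is made mainly by macrophages. The C4b gene has a near-identical copy, C4a, so whether its probe separates them was not tested. In whole-kidney RNA, fewer cells of a type and less RNA per cell cannot be told apart.

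The promoters of 6 of the measured genes are shown, because these genes either differed most between ages or, for Fgb and Fgg, lie close together on chromosome 2. Of Fgb and Fgg, only Fgg was called higher in adults than at 2 weeks. The sequences are those of RefSeq on assembly GRCr8, from 250 bases before to 50 bases after the gene's start and 300 bases long, and 9 of the 10 genes had an entry. Capitals mark matches, on either strand, to the letters listed below, which are known from liver and acute phase genes except for the TATA box.
C4b, chr20:4201729-4202028, plus strand: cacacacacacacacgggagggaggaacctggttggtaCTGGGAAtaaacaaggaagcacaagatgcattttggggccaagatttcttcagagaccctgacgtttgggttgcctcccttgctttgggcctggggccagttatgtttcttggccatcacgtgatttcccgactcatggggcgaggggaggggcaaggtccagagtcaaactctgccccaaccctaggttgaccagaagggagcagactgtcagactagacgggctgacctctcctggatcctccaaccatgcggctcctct
Serpinc1, chr13:75790308-75790607, plus strand: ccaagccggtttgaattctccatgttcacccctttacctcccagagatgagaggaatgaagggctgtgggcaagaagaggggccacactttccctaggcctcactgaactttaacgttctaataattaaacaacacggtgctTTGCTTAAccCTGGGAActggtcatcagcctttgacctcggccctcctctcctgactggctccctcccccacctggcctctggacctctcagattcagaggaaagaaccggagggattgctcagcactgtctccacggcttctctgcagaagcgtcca
Fgb, chr2:170700826-170701125, minus strand: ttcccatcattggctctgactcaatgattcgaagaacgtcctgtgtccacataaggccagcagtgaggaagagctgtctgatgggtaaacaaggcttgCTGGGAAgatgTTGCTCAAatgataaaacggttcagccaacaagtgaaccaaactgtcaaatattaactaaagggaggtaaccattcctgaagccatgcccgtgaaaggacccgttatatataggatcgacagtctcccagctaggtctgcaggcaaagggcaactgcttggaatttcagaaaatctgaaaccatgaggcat
Fgg, chr2:170652833-170653132, plus strand: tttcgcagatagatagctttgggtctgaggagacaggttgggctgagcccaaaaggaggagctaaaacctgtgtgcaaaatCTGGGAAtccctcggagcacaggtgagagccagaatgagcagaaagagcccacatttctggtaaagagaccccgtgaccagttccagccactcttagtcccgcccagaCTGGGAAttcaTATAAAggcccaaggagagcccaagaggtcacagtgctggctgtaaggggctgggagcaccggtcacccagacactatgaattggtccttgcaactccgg
Apcs, chr13:87906459-87906758, minus strand: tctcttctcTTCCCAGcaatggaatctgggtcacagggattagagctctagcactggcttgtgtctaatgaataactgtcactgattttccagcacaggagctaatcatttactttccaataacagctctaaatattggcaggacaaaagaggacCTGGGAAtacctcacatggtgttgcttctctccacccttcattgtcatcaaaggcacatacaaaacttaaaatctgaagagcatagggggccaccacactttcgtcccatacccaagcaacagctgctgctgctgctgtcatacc
Pzp, chr4:163491286-163491585, minus strand: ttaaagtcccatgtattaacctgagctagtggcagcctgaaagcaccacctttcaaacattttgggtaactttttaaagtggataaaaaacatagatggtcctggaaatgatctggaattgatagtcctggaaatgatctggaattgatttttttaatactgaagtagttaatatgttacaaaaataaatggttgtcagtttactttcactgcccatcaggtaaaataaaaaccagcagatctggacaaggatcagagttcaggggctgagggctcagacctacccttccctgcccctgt

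The letters searched were CTGGGAA for an IL-6 response element, TTGCNNAA for C/EBP, GTTAAT and ATT with any base between for HNF1, GGG and TTCC with any 3 bases between for NF-kB and TATAAA for a TATA box, and no matches overlapped in the windows shown. CTGGGAA was found in 6 of the 9 promoters, including C4b, Serpinc1, Fgb, Fgg and Apcs above and also C3, against 11.3% of 33469 rat promoters of the same length. In Fgg and in Apcs it was found at 2 places. The C/EBP letters were found in 4 of the 9 promoters, Serpinc1 and Fgb above as well as C3 and Fga, against 10.6% of all. The NF-kB letters were found in C1qb alone among the 9, against 5.37% of all, and the TATA box letters in Fgg alone, against 14.2% of all. The HNF1 letters were in none of the 9 windows and in 0.335% of all, and the Pzp window held no match to any of the motifs. A match is a description of these letters and not a measured site.

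Across the 59 arrays, 9139 to 12488 probes were above background (median 11629), meaning that their signal exceeded the background of that array at a one-sided p under 0.05. Arrays lay on 10 slides, and adults shared slides with other adults and with a single 2-week rat, an untreated male. The RNA carried kidney genes in every group: all 5 kidney markers of a list of tubule genes were above background in every group. Of 8 hepatocyte genes on the array, only Cyp2e1, which rat kidney expressed at all ages, was above background throughout. Alb, Apoa2, Ahsg, Ttr, Serpina1 and Cps1 were above background on 0 of the 20 adult arrays, and Tat on 1. The signals below are log2 of the background-corrected and quantile-normalized intensity, and a difference of 1 is a doubling.

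The signals of 7 of the 8 genes were higher in adults than at 2 weeks, in PDTC rats and in untreated rats alike, and Serpinc1, Apcs and Pzp differed most. At 2 weeks Serpinc1 and Pzp were near the background, and in adults they were well above it on all 20 arrays. Fgb, unlike Fgg, had a difference between these ages smaller than its SE in both treatments. Calls were made with limma (moderated linear models) at a Benjamini-Hochberg adjusted p under 0.05 over all probes tested. Of all probes 64% were called between untreated adults and untreated 2-week rats, 31.7% higher and 32.3% lower, so a call by itself is common at this contrast. The sizes were less common: among 13114 tested probes, ordered from the largest increase, Serpinc1 stood at rank 7, Apcs at 9, Pzp at 14, C4b at 57, C1s at 134, C1qb at 196 and Fgg at 468. In PDTC rats 67.7% of probes were called, 32.7% higher and 35% lower, and among 13236 probes the ranks were 14 for Serpinc1, 8 for Apcs, 29 for Pzp, 40 for C4b, 133 for C1s, 156 for C1qb and 220 for Fgg. The median difference of the 8 genes was 2.77 in PDTC rats, against -0.00048 over all probes, and in untreated rats it was 2.60 against 0.0027. With arrays scaled to 1 median in place of quantiles the median of all probes was -0.66 in PDTC rats and -0.57 in untreated rats. The calls were then 1743 higher of 10161 in PDTC rats and 1582 higher of 9165 in untreated rats, in place of 4331 of 8958 and 4161 of 8393. Relative to these medians 7 of the 8 genes were again higher in each treatment. Slide and age nearly coincide here, and the values with slide as a term are given with each gene where the call changed. In untreated rats the adult step with that term rests on the single 2-week array among the adult slides. In PDTC rats no slide held both ages, so that step could not be fitted with slide as a fixed term.

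**Figure D1:**
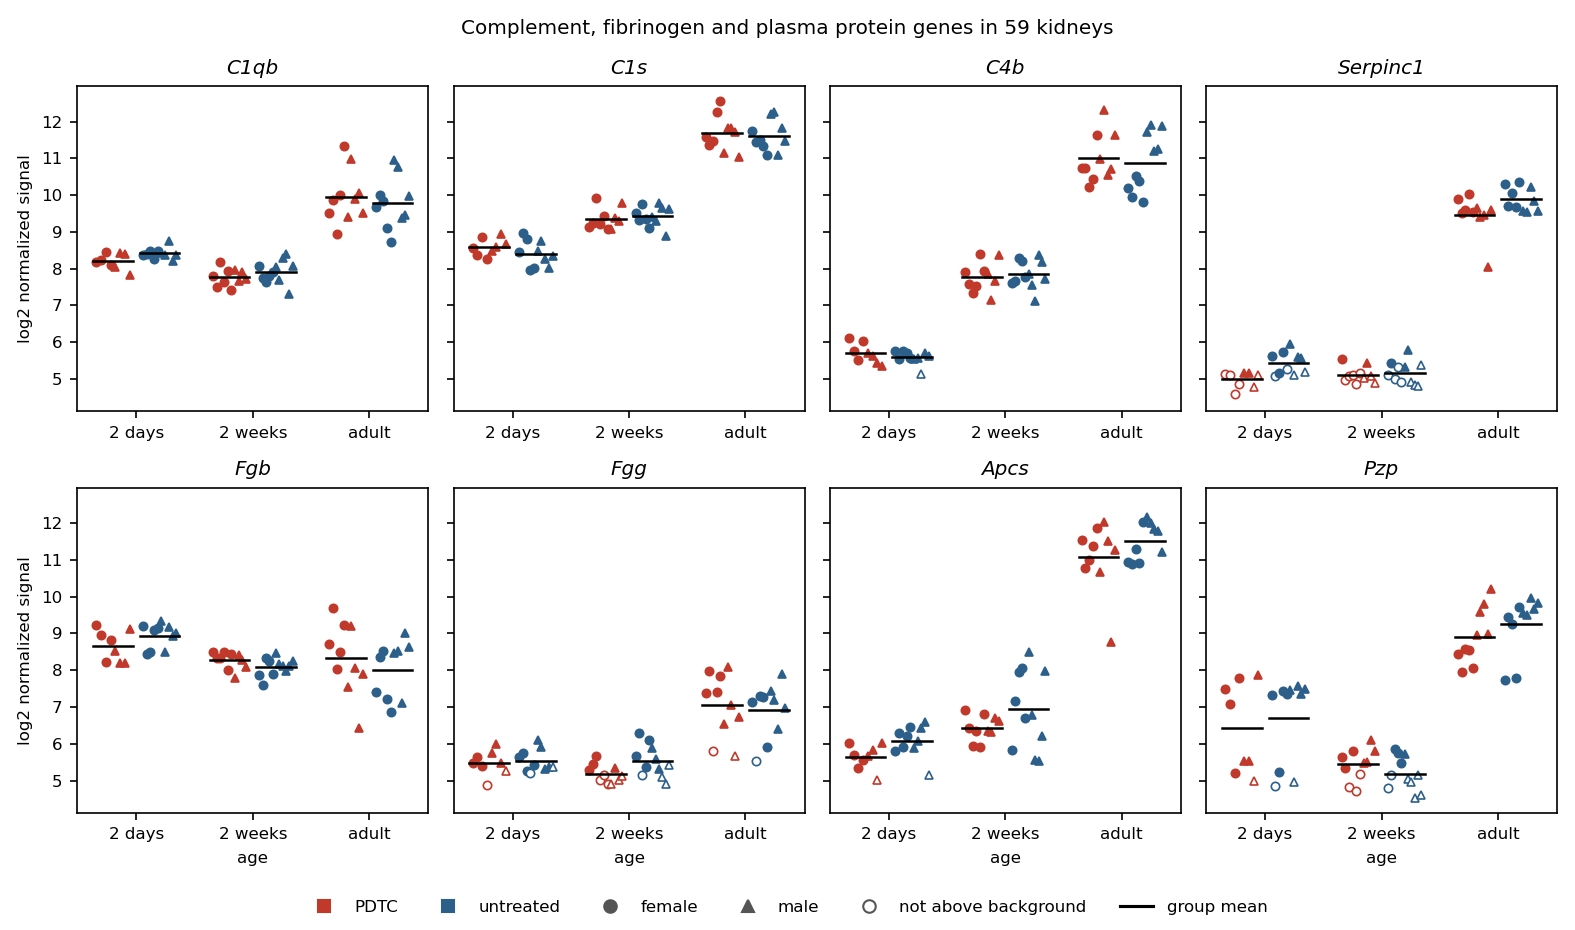
Log2 normalized signal of the 8 measured genes (vertical axis) at 2 days, 2 weeks and adult age (horizontal axis), with 1 point per rat, PDTC left of untreated, circles for females, triangles for males, open points where the probe was not above background and a line at the mean of all rats of that treatment and age. The adult means lie above those of both younger ages for every gene except Fgb, and Pzp at 2 days falls into separate high and low points.

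Among the complement genes, C4b increased at both steps. At 2 days C4b ranged from 5.37 to 6.10 (median 5.65) in PDTC pups and from 5.14 to 5.77 (median 5.60) in untreated pups. At 2 weeks it ranged from 7.14 to 8.41 (median 7.77) in PDTC rats and from 7.13 to 8.38 (median 7.79) in untreated rats. In adults it ranged from 10.21 to 12.33 (median 10.74) in PDTC rats and from 9.81 to 11.92 (median 10.86) in untreated rats. No 2 of the 3 ages overlapped in either treatment. The step from 2 days to 2 weeks was 2.08 ± 0.16 (SE, adjusted p = 1.05e-08) in PDTC rats and 2.26 ± 0.13 (adjusted p = 1.04e-11) in untreated rats, both by limma. The step from 2 weeks to adults was 3.22 ± 0.23 (adjusted p = 2.16e-10) in PDTC rats and 3.03 ± 0.15 (adjusted p = 2.84e-13) in untreated rats, a fold of 9.32 and of 8.14. The size of the first step depends on the background step: in PDTC rats it was 1.15 with the authors' deposited log2 values and 1.26 without the normexp background correction, both called.

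C1s, the protease of the first complement component, was well above background at every age. It ranged from 8.26 to 8.94 (median 8.57) in PDTC pups of 2 days and from 7.97 to 8.96 (median 8.41) in untreated pups. At 2 weeks it ranged from 9.07 to 9.92 (median 9.27) in PDTC rats and from 8.90 to 9.79 (median 9.40) in untreated rats. Adult kidneys ranged from 11.04 to 12.56 (median 11.65) in PDTC rats and from 11.08 to 12.26 (median 11.49) in untreated rats. The adult values lay above every younger value. From 2 days to 2 weeks C1s increased by 0.77 ± 0.12 (SE, limma adjusted p = 8.24e-05) in PDTC rats, without overlap of the ages, and by 1.02 ± 0.14 (adjusted p = 3.99e-06) in untreated rats. C1s was higher in adults than at 2 weeks by 2.32 ± 0.17 (SE, limma adjusted p = 2.94e-10) in PDTC rats and by 2.17 ± 0.15 (adjusted p = 3.58e-11) in untreated rats.

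C1qb went down before it went up. At 2 days it ranged from 7.84 to 8.46 (median 8.21) in PDTC pups and from 8.22 to 8.76 (median 8.39) in untreated pups. At 2 weeks it was lower, 7.42 to 8.19 (median 7.77) in PDTC rats and 7.30 to 8.41 (median 7.90) in untreated rats. The adult signals ranged from 8.94 to 11.33 (median 9.88) in PDTC rats and from 8.73 to 10.97 (median 9.76) in untreated rats, with no overlap with 2 weeks. The difference of 2 weeks minus 2 days was -0.43 ± 0.11 (SE, limma adjusted p = 0.00418) in PDTC rats and -0.51 ± 0.11 (adjusted p = 0.000758) in untreated rats. In PDTC rats that call ended in 1 fit of all 59 arrays (adjusted p = 0.152). That of adults minus 2 weeks was 2.17 ± 0.24 (adjusted p = 9.59e-08) in PDTC rats and 1.89 ± 0.20 (adjusted p = 6.74e-08) in untreated rats. The spread among adults was wider, with an SD of 0.722 in PDTC rats and 0.689 in untreated rats, against 0.233 and 0.313 at 2 weeks.

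Serpinc1 was near background in the young kidney. It was above background on 2 of 10 arrays of PDTC rats and 3 of 11 of untreated rats at 2 weeks, at 4.87 to 5.53 (median 5.08) in PDTC rats and 4.80 to 5.79 (median 5.11) in untreated rats. In adults it ranged from 8.04 to 10.02 (median 9.56) in PDTC rats and from 9.55 to 10.35 (median 9.77) in untreated rats. Every adult value lay above every 2-week value by more than the whole range of either treatment at 2 weeks. The difference of adults minus 2 weeks was 4.36 ± 0.17 (SE, limma adjusted p = 1.4e-14) in PDTC rats and 4.72 ± 0.14 (adjusted p = 2.98e-17) in untreated rats, a fold of 20.5 and of 26.3. Since the signal at 2 weeks was near background, the size depends on the background step: it was 3.13 with the deposited log2 values and 3.92 with arrays scaled to 1 median, both in untreated rats and both called.

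The fibrinogen chains differed in the step from 2 weeks to adults, which was called for Fgg and not for Fgb. From 2 days to 2 weeks Fgg was not called. Its 95% interval at that step was -0.58 to -0.04 in PDTC rats and -0.31 to 0.33 in untreated rats. Fgg was above background on 4 of 10 arrays of PDTC rats and 7 of 11 of untreated rats at 2 weeks, at 4.90 to 5.68 (median 5.14) in PDTC rats and 4.91 to 6.31 (median 5.42) in untreated rats. Adult kidneys ranged from 5.66 to 8.08 (median 7.22) in PDTC rats and from 5.53 to 7.90 (median 7.16) in untreated rats, so a few adults lay within the 2-week range. Fgg was higher in adults by 1.87 ± 0.26 (SE, limma adjusted p = 3.3e-06) in PDTC rats and by 1.36 ± 0.23 (adjusted p = 2.89e-05) in untreated rats. In untreated rats the size was 0.68 with the deposited log2 values and 0.65 with arrays scaled to 1 median, both called, and with slide as a term, where it rests on the single 2-week array among the adult slides, it was 1.65 with an adjusted p of 0.12.

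Fgb was measured well above background at every age. It ranged from 8.20 to 9.22 (median 8.68) in PDTC pups of 2 days and from 8.45 to 9.35 (median 9.05) in untreated pups. At 2 weeks it ranged from 7.79 to 8.49 (median 8.34) in PDTC rats and from 7.60 to 8.46 (median 8.11) in untreated rats. The adult signals ranged from 6.43 to 9.69 (median 8.28) in PDTC rats and from 6.87 to 9.02 (median 8.42) in untreated rats. The adult values straddled those of 2 weeks on both sides. The difference of adults minus 2 weeks was 0.09 ± 0.25 (SE) in PDTC rats and -0.07 ± 0.21 in untreated rats (limma adjusted p = 0.773 and 0.778), and the 95% interval in untreated rats was -0.52 to 0.37. That of 2 weeks minus 2 days was -0.42 ± 0.14 (adjusted p = 0.0287) in PDTC rats, and -0.85 ± 0.12 (adjusted p = 1.19e-05) in untreated rats. In PDTC rats the call ended with arrays scaled to 1 median (adjusted p = 0.107), without filter (0.0507), in 1 fit of all 59 arrays (0.242) and without PDTC 2-day male 4, 2-day females 1 or 2 or 2-week male 1 (0.0548 to 0.0685).

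Apcs rose mainly after 2 weeks, and untreated rats of 2 weeks spread widely. At 2 days Apcs ranged from 5.01 to 6.03 (median 5.68) in PDTC pups and from 5.16 to 6.61 (median 6.14) in untreated pups. At 2 weeks it ranged from 5.92 to 6.92 (median 6.40) in PDTC rats and from 5.54 to 8.50 (median 6.77) in untreated rats, with an SD of 0.339 and 1.07. In adults it ranged from 8.77 to 12.04 (median 11.33) in PDTC rats and from 10.88 to 12.16 (median 11.54) in untreated rats. No adult overlapped with a 2-week rat of the same treatment. The step from 2 days to 2 weeks was 0.81 ± 0.16 (SE, limma adjusted p = 0.000521) in PDTC rats and 0.87 ± 0.34 (adjusted p = 0.051) in untreated rats. In 1 fit of all 59 arrays the step was not called in PDTC rats (adjusted p = 0.0615) and was called in untreated rats (0.0192). From 2 weeks to adults it was 4.64 ± 0.29 (adjusted p = 3.41e-11) in PDTC rats and 4.56 ± 0.34 (adjusted p = 1.81e-10) in untreated rats. With slide as a term the adult step of untreated rats was 3.08 with an adjusted p of 0.0759.

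Pzp had its lowest signals at 2 weeks. At 2 days it ranged from 4.99 to 7.87 (median 6.31) in PDTC pups and from 4.84 to 7.57 (median 7.34) in untreated pups. These values fell into separate low and high sets. The 7 low pups, at 4.84 to 5.53, lay within the 2-week range, so the drop to 2 weeks rests on the 11 high pups, at 7.08 to 7.87. At 2 weeks Pzp was above background on 7 of 10 arrays of PDTC rats and 4 of 11 of untreated rats, at 4.72 to 6.11 (median 5.49) in PDTC rats and 4.53 to 5.87 (median 5.14) in untreated rats. Adult kidneys ranged from 7.95 to 10.21 (median 8.78) in PDTC rats and from 7.73 to 9.96 (median 9.53) in untreated rats, above every 2-week value. The difference of adults minus 2 weeks was 3.43 ± 0.17 (SE, limma adjusted p = 1.14e-12) in PDTC rats and 4.04 ± 0.23 (adjusted p = 1.7e-12) in untreated rats. The difference of 2 weeks minus 2 days was -0.95 ± 0.36 (adjusted p = 0.0476) in PDTC rats and -1.49 ± 0.35 (adjusted p = 0.00181) in untreated rats. In PDTC rats that call ended without filter (adjusted p = 0.0906) and with slide as a term (0.0536). It also ended when any of 13 of the 18 arrays was left out, with adjusted p up to 0.103, and held without PDTC 2-day males 1, 2 or 3, 2-day female 3 or 2-week female 4. Without 2-day male 4 the difference was -0.63.

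Between 2 days and 2 weeks 6 of the 8 genes were called in PDTC rats, 3 higher and 3 lower, where 38.4% of all probes were called, 18% higher and 20.4% lower. In untreated rats 5 were called, 2 higher and 3 lower, where 37.8% of all were called, 16.9% higher and 20.9% lower. By size C4b stood at rank 29 of 13368 in PDTC rats and at rank 28 of 13378 in untreated rats. In adults minus 2 weeks the groups of 6 of the 8 genes did not overlap in either treatment, where 11.2% of probes in PDTC rats and 5.06% in untreated rats were higher without overlap.

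**Figure D2:**
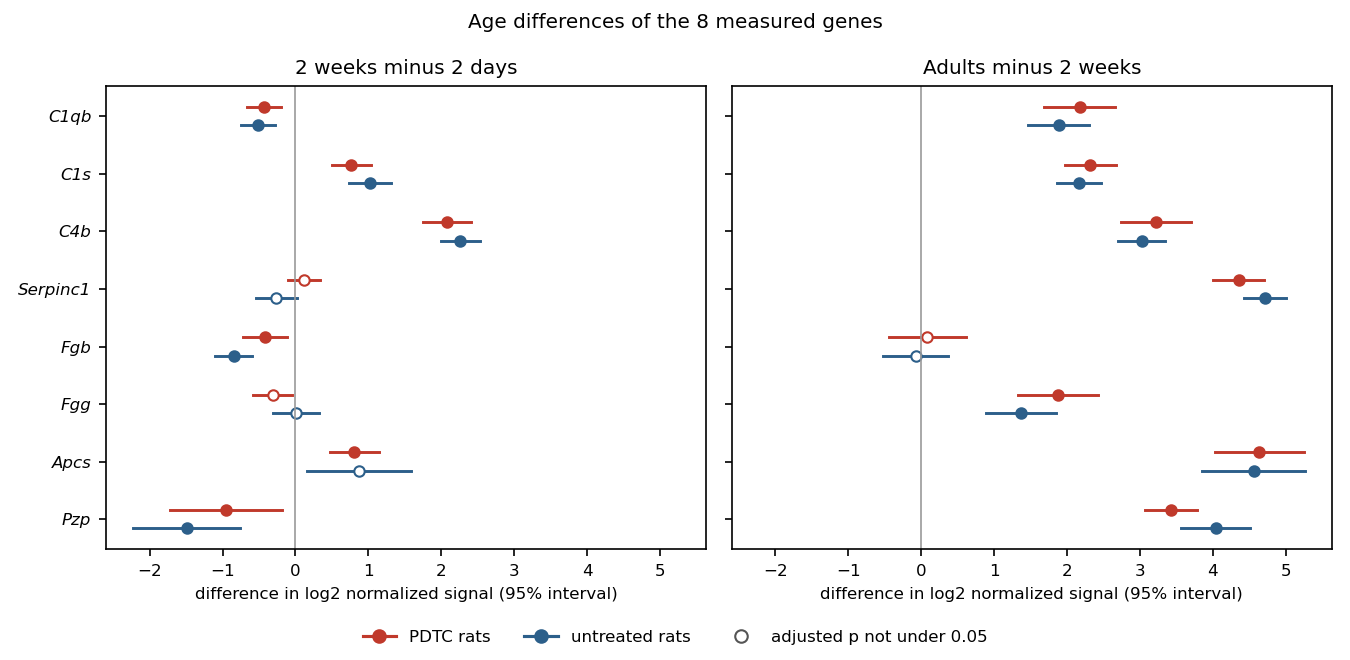
Differences between ages in log2 normalized signal (horizontal axis) of the 8 genes (vertical axis), with 95% intervals from the limma fit, PDTC rats above untreated rats, and open points where the adjusted p was not under 0.05. The adult step of Serpinc1 is 4.36 in PDTC rats and 4.72 in untreated rats, and that of Fgb spans 0 in both.

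Other genes of the same systems were mixed between untreated adults and untreated 2-week rats. Of 22 other complement genes tested, 12 were called higher and 6 lower, with a median difference of 0.59 against 0.0027 over all probes, and with arrays scaled to 1 median 10 and 9, at 0.03 against -0.57. Serping1, which encodes the inhibitor of C1s, was higher by 1.97 ± 0.15 (SE, limma adjusted p = 2.75e-10). Cfi, the protease that degrades C4b and C3b protein, was higher by 2.89 ± 0.25 (adjusted p = 1.9e-09), and Clu, an inhibitor of the terminal complex, by 1.94 ± 0.16 (adjusted p = 1.31e-09). Cd93 had a difference of -2.33 ± 0.15 and Fcna, a ficolin of the lectin pathway, of -1.24 ± 0.16 (adjusted p = 1.75e-11 and 7.89e-07). Vtn, which encodes vitronectin, was above background on 0 of 10 adult arrays and all 11 at 2 weeks, at least 1.74-fold higher at 2 weeks (adjusted p = 7.4e-10), with the adults taken at the lowest signal above background on each array or at their own where that was higher.

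Of 19 other coagulation and fibrinolysis genes tested, 10 were called higher and 4 lower in untreated adults against 2 weeks, with a median of 0.58. Under scaling to 1 median these were 6 and 7, at 0.19. Vwf, which tethers platelets, was higher by 2.57 ± 0.16 (SE, limma adjusted p = 8.85e-12). Proc, the anticoagulant protein C, was higher by 1.98 ± 0.13 (adjusted p = 2.08e-11) and F3, tissue factor, by 1.27 ± 0.10 (adjusted p = 4.67e-10; 0.41 and not called with arrays scaled to 1 median). Pros1, the cofactor of protein C, had a difference of -1.25 ± 0.20, Tfpi, the inhibitor of tissue factor, of -0.87 ± 0.12 and Plau, urokinase, of -0.55 ± 0.14, with adjusted p = 1.12e-05, 2.58e-06 and 0.00171.

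Of 14 other plasma and acute phase protein genes tested, 5 were called higher and 5 lower, with a median of 0.05, and under scaling to 1 median 5 and 4. Fetub, a fetuin, was higher by 3.93 ± 0.18 (SE, limma adjusted p = 3.41e-14) and Cp, ceruloplasmin, by 3.22 ± 0.22 (adjusted p = 5.92e-11). Lcn2, a protein of injured tubules and of the acute phase, was higher by 2.72 ± 0.24 (adjusted p = 4.13e-09). Afp, the fetal plasma protein alpha-fetoprotein, was above background on 0 of 10 untreated adult arrays and all 11 at 2 weeks, at least 13.7-fold higher at 2 weeks by the same rule (adjusted p = 1.05e-11). Ambp, the precursor of alpha-1-microglobulin, had a difference of -0.95 ± 0.17 (adjusted p = 7.17e-05). Hpx, hemopexin, was above background on 0 of 10 adult arrays and 7 of 11 at 2 weeks (adjusted p = 0.000562). In PDTC rats the counts of higher and lower calls in adults were 12 and 7 of 23 complement genes, 10 and 3 of 17 coagulation genes and 7 and 5 of 16 plasma protein genes. Under scaling to 1 median these were 11 and 9, 7 and 7, and 7 and 4. Of all probes 67.7% were called there, 32.7% higher and 35% lower.

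At the earlier step in untreated rats, 2 weeks against 2 days, 8 of 21 other complement genes were called higher and 3 lower, 8 of 19 coagulation genes higher and 3 lower, and 6 of 15 plasma protein genes higher and 6 lower. Of all probes 37.8% were called at that step, 16.9% higher and 20.9% lower. Under scaling to 1 median the list counts were 4 higher and 1 lower, 7 and 1, and 5 and 5. Vtn, which was lower in adults, was above background on 0 of 10 arrays at 2 days and was at least 2.57-fold higher at 2 weeks (limma adjusted p = 4.11e-11). Thbd, the thrombin receptor thrombomodulin, was higher by 1.41 ± 0.10 (SE, adjusted p = 2.01e-10). F2, prothrombin, had a difference of -1.32 ± 0.10 (adjusted p = 5.77e-10).

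Genes of other cell types and of a list of IL-6 and acute phase signalling also differed between untreated adults and 2-week rats. Of 8 macrophage genes tested, 6 were higher and 1 lower with a median of 1.26 (5 and 1 under scaling to 1 median). The higher ones included C1qa at 2.11 ± 0.21 and C1qc at 1.73 ± 0.17, the partners of C1qb, and Aif1 at 1.83 ± 0.18. The lower one was Mrc1 at -0.89 ± 0.30 (SE, limma adjusted p = 0.0136), and Ms4a7 at -0.01 ± 0.19 was not called. The summed normalized signal of the 9 macrophage genes ranged from 2635 to 7742 in the untreated adults and from 1227 to 1806 in the untreated 2-week rats. Of 8 tubular injury genes 4 were higher and 1 lower with a median of 0.62, and of 12 IL-6 and acute phase signalling genes 10 were higher and 1 lower with a median of 0.67. Under scaling to 1 median these were 3 and 2 injury genes and 4 and 1 signalling genes. In the signalling list Il1b was higher by 3.16 ± 0.32, Osmr by 1.39 ± 0.17 and Rela by 0.95 ± 0.13 (SE, limma adjusted p = 2.46e-08, 3.21e-07 and 1.76e-06), and with that scaling Rela was at 0.04 and not called. Lifr was the gene called lower in that list, at -0.36 ± 0.11 (limma adjusted p = 0.00486). Il6, Il6st and Socs3 of that list were above background on too few arrays to be tested. The part of these genes and cells in the adult signals of the complement and plasma protein genes was not tested.

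Of the 8 hepatocyte genes 6 were above background on no adult array. At 2 weeks Alb was above it on 2 of 21 arrays, Ahsg on 3, Ttr on 2 and Serpina1 on 7. At 2 days Alb was above it on 3 of 18 arrays, Ahsg on 2, Ttr on 1 and Serpina1 on all 18. At 2 weeks untreated females 2 and 5 had Alb at 8.53 and 8.52 and Ahsg, the other fetuin, at 8.37 and 8.17, where the other 19 rats of that age had no Alb above background. The same rats had Fgg at 6.31 and 6.09, the highest of all 21 rats of 2 weeks, and Fgb at 7.60 and 7.88. Without them the adult difference of Fgg in untreated rats was 1.53 with a limma adjusted p of 3.29e-05, and that of Serpinc1 was 4.72. At 2 days PDTC males 2 and 4 had Alb at 6.60 and 6.30, and their Fgg was 5.99 and 5.27. Untreated male 4 of that age had Alb at 5.64 and Fgg at 5.36.

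Pzp at 2 days fell into separate high and low values, which was seen in the values and not looked for. The 4 PDTC pups and 3 untreated pups with low Pzp had it at 4.84 to 5.53. These were PDTC female 3 and PDTC males 1, 2 and 3, and untreated females 2 and 3 and untreated male 2. The other 4 PDTC pups and 7 untreated pups had it at 7.08 to 7.87, with no pup between. Fgb was at 8.20 to 8.52 in the pups with low Pzp and at 8.83 to 9.35 in the others. Afp was at 11.13 to 11.67 and at 12.17 to 12.62. Both sexes and both treatments stood on either side, as the plot of the 18 pups shows. C4b, in contrast, was at 5.45 to 5.77 and at 5.14 to 6.10 and overlapped. Apcs, Serpinc1, Fgg, C1s and C1qb overlapped as well, so that Fgb alone of the other measured genes was separate. The pups with low Pzp lay on slide 2 (2 of its 4 pups), slide 3 (2 of 2) and slide 4 (3 of 4), and all 8 pups of slides 1, 5 and 6 had high Pzp. The part of the slide in this split was not tested. Since these pups were sorted by a measured value, no test was made.

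**Figure D3:**
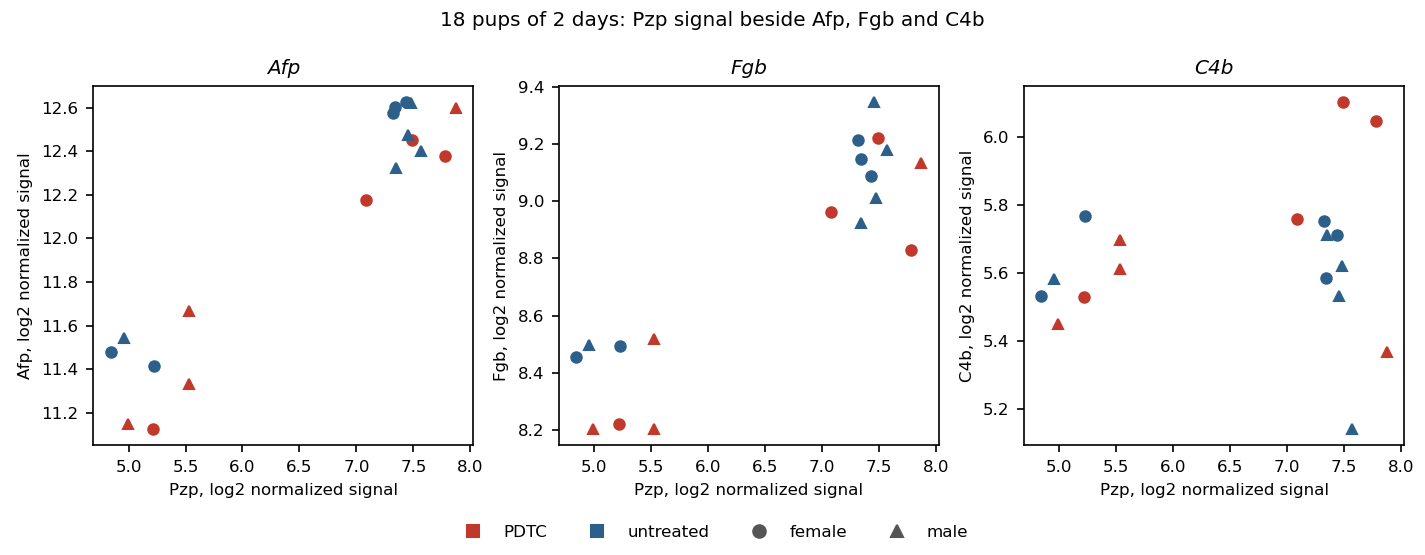
Log2 normalized signal of Afp, Fgb and C4b (vertical axes) against that of Pzp (horizontal axis) in the 18 pups of 2 days, with red for PDTC, blue for untreated, circles for females and triangles for males. The 7 pups with Pzp at 5.53 or below also have the lowest Afp and Fgb, and C4b shows no such gap.

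Adult females and males differed in C4b among untreated rats. The 5 untreated females had C4b at 10.19, 9.94, 10.53, 10.37 and 9.81, and the 5 untreated males at 11.73, 11.92, 11.19, 11.26 and 11.87. Every female lay below every male. The difference of females minus males was -1.43 ± 0.30 (SE, limma adjusted p = 0.0176), so that females had 0.372 times the signal of males. It was the only one of the 8 genes called, where 1.34% of 11701 probes were called, 0.744% higher and 0.598% lower in females, and 1.39% were lower without overlap. Within the 4 slides that held untreated adults of both sexes the difference was -1.78, -1.53, -0.73 and -1.62. The call ended with arrays scaled to 1 median (-1.62, adjusted p = 0.139) and without untreated male 1, 2 or 5 or untreated female 5, with -1.39, -1.34, -1.36 and -1.34 and an adjusted p of 0.0534, 0.0604, 0.0528 and 0.0506. Sex and the age of 42 against 36 weeks cannot be told apart.

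Among PDTC adults the C4b groups overlapped. The 5 PDTC females had C4b at 10.75, 10.73, 10.21, 10.44 and 11.63, and the 5 PDTC males at 10.99, 12.33, 10.54, 10.71 and 11.63. Their difference was -0.49 ± 0.30 (SE, limma adjusted p = 0.487), with a 95% interval from -1.12 to 0.15. In the difference of the PDTC effect between the sexes, C4b had 0.94 ± 0.43 with an adjusted p of 0.63, so that the sex difference of C4b was not shown to differ between treatments. At 2 weeks C4b averaged 7.91 ± 0.32 in untreated females and 7.80 ± 0.44 in untreated males (SD, n = 5 and 6). The sex difference of adults minus that at 2 weeks in untreated rats was -1.53 ± 0.31 (limma adjusted p = 0.0117), the only call among the 8 genes, where 0.854% of probes were called, 0.496% higher and 0.358% lower. It was lost with arrays scaled to 1 median (-1.86, adjusted p = 0.125) and with slide as a term (-1.56, adjusted p = 0.17). In PDTC rats the same comparison called 0 of the 8 genes, where 0.718% of probes were called.

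Pzp was not called between the sexes, though the groups of PDTC adults did not overlap. The 5 PDTC females had Pzp at 8.44, 7.95, 8.59, 8.55 and 8.05 and the 5 PDTC males at 8.97, 9.57, 9.81, 8.99 and 10.21, without overlap. The 5 untreated females had it at 7.73, 9.45, 9.26, 7.79 and 9.71 and the 5 untreated males at 9.54, 9.51, 9.96, 9.67 and 9.83, with overlap through female 5. The difference of females minus males was -1.19 ± 0.34 (SE, limma adjusted p = 0.122) in PDTC rats and -0.91 ± 0.34 (adjusted p = 0.266) in untreated rats. In PDTC adults 0 of the 8 genes were called, where 0.752% of probes were called and 1.41% were lower in females without overlap. With array weights Pzp was called in PDTC rats (-1.15, adjusted p = 0.0263).

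**Figure D4:**
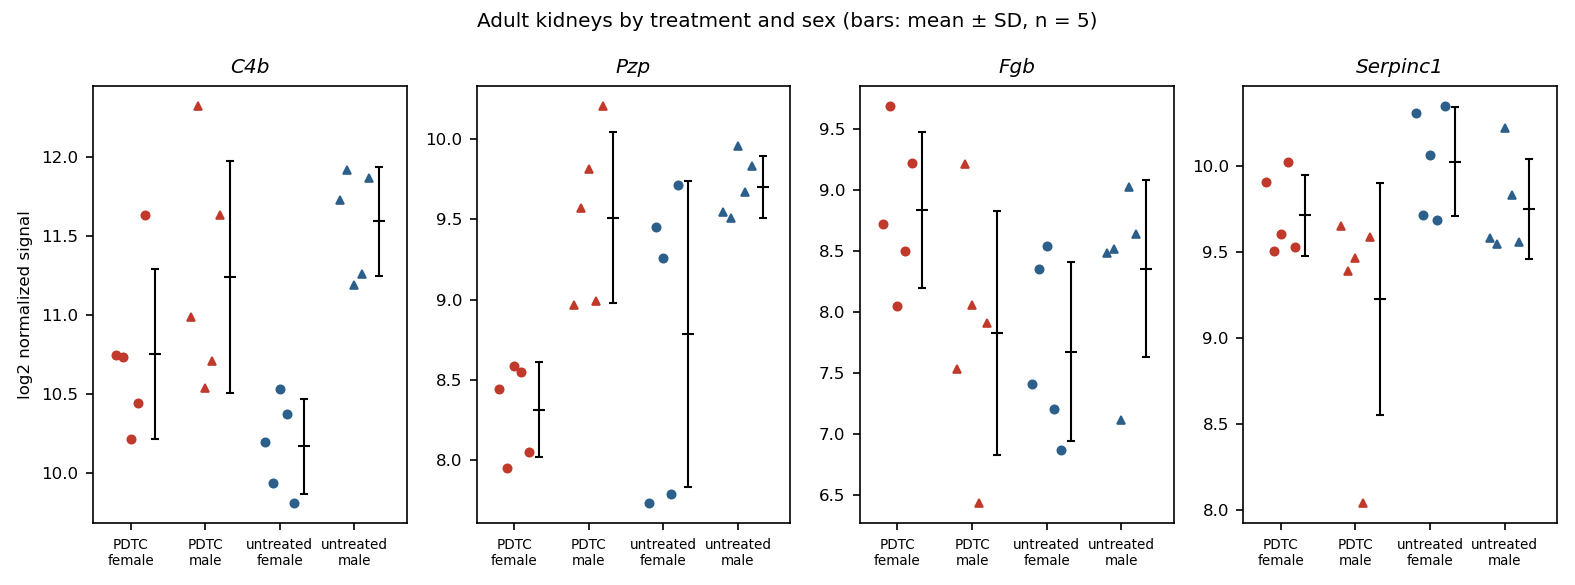
Log2 normalized signal of C4b, Pzp, Fgb and Serpinc1 (vertical axes) in the 4 adult groups (horizontal axis), with 1 point per rat and the mean ± SD of 5 rats beside it. Untreated females lie below untreated males for C4b (9.81 to 10.53 against 11.19 to 11.92), PDTC females lie below PDTC males for Pzp, and PDTC male 4 has the lowest Fgb and Serpinc1.

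Other genes also differed between untreated adult females and males. Of 21 other complement genes 0 were called higher and 1 lower, Clu, with -1.27 ± 0.27 (SE, limma adjusted p = 0.0163). Of 17 coagulation genes Vwf was called higher in females by 1.44 ± 0.27 (adjusted p = 0.00614) and Kng2, a kininogen, lower with -2.17 ± 0.46 (adjusted p = 0.0159). Of 11 plasma protein genes 2 were called lower, Gc, the vitamin D binding protein (adjusted p = 0.000416), and Apoh, a phospholipid-binding plasma protein (adjusted p = 0.00901). Both were above background on 0 of 5 arrays of untreated females, and males were at least 4.83-fold higher for Gc and at least 1.58-fold higher for Apoh. In PDTC females they were again above background on 0 of 5 arrays and called lower, with PDTC males at least 10.3-fold and 3.24-fold higher (adjusted p = 4.27e-06 and 7.8e-05). Of 7 tubular injury genes 2 were called lower in untreated females, Clu and the adhesion receptor Cd44, at -1.81 ± 0.34 (adjusted p = 0.00579), and of 8 macrophage genes 0, with a median of -0.54. Under scaling to 1 median Kng2 and Gc alone of these 6 genes were called. The summed signal of the 8 tubular injury genes ranged from 23900 to 30052 in untreated females and from 32894 to 59812 in untreated males, and that of the 9 macrophage genes from 2635 to 4663 and from 3168 to 7742. Their part in the C4b difference was not tested.

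At 2 days and at 2 weeks 0 of the 8 genes were called between the sexes in either treatment, and 0% of all probes were called by limma in each of these comparisons. Of all probes 193 in PDTC and 224 in untreated pups of 2 days, and 80 in PDTC and 368 in untreated rats of 2 weeks, had an unadjusted p under 0.05.

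Whether maternal PDTC left a mark on kidney expression was the question of the treatment groups, and 0 of the 8 genes were called at any age, as 0 of all probes were (0%, limma). At an unadjusted p under 0.05 there were 2085 of 13163 probes at 2 days, 697 of 13360 at 2 weeks and 668 of 11701 in adults. Of the 8 genes 3 passed that unadjusted level at 2 days, 1 at 2 weeks and 1 in adults. Serpinc1 at 2 days averaged 4.99 ± 0.22 in PDTC pups and 5.43 ± 0.31 in untreated pups (SD, n = 8 and 10), close to background. Its difference was -0.44 ± 0.13 (SE, limma adjusted p = 0.139), with a 95% interval from -0.70 to -0.17. It was above background on 0 of 4 arrays of PDTC females against 3 of 5 of untreated females, and the difference in females alone was not called. Apcs had -0.44 ± 0.18 (adjusted p = 0.24) and C1qb -0.21 ± 0.09 (adjusted p = 0.27) at that age.

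In adults Serpinc1 averaged 9.47 ± 0.54 in PDTC rats and 9.89 ± 0.32 in untreated rats (SD, n = 10 each). The 5 PDTC females had 9.90, 9.51, 9.60, 10.02 and 9.53 and the 5 untreated females 10.31, 9.71, 10.06, 9.68 and 10.35. The 5 PDTC males had 9.65, 9.39, 9.47, 8.04 and 9.58 and the 5 untreated males 9.58, 9.55, 10.22, 9.83 and 9.56. PDTC male 4 stood far below the others. The difference over both sexes was -0.42 ± 0.18 (SE, limma adjusted p = 0.799, 95% interval -0.79 to -0.04), and -0.73 to -0.30 within each of the 4 slides. PDTC male 4 was also lowest of all adults for Apcs at 8.77 and for Fgb at 6.43, and lowest of the PDTC adults for Fgg at 5.66. It had C1s at 11.71 and C1qb at 10.06, however, within the range of its group. At 2 weeks Fgg had -0.37 ± 0.15 (adjusted p = 0.825), and -0.21 without untreated females 2 and 5, which carried albumin signal.

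In adults the PDTC difference had opposite signs in the sexes for several genes, and none of these differences was called. In males all 8 genes had a lower mean in PDTC rats, with a median difference of -0.36 against -0.022 over all probes, and in females 6 of 8 had a higher mean, with a median of 0.44 against -0.0090. The number of genes with a higher mean, 0 in males and 6 in females, was the same with each of the other settings that kept all arrays. Leaving out arrays in turn gave 0 to 1 in males and 5 to 6 in females. All these settings reuse the same arrays, and the 8 genes were measured in the same kidneys, where some went together. The counts are therefore not independent support for an effect. Fgb was the clearest case: PDTC females had 8.72, 9.69, 8.05, 8.50 and 9.22, against 7.41, 8.35, 8.54, 7.21 and 6.87 in untreated females. PDTC males had 7.53, 9.21, 8.05, 6.43 and 7.91, against 8.48, 8.51, 7.12, 9.02 and 8.64 in untreated males. The groups overlapped in both sexes. The Fgb difference was 1.16 ± 0.45 (SE, limma adjusted p = 0.798) in females and -0.53 ± 0.45 (adjusted p = 0.751) in males. The difference between these effects was 1.69 ± 0.64 with an adjusted p of 0.63, and 0 of the 8 genes and 0% of all probes were called for it, although 919 probes had an unadjusted p under 0.05. In 1 fit of all 59 arrays it was called, with an adjusted p of 0.0333. Between 2 weeks and 2 days and between adults and 2 weeks the PDTC effect was not called to differ for any of the 8 genes or any probe (0% in both).

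**Figure D5:**
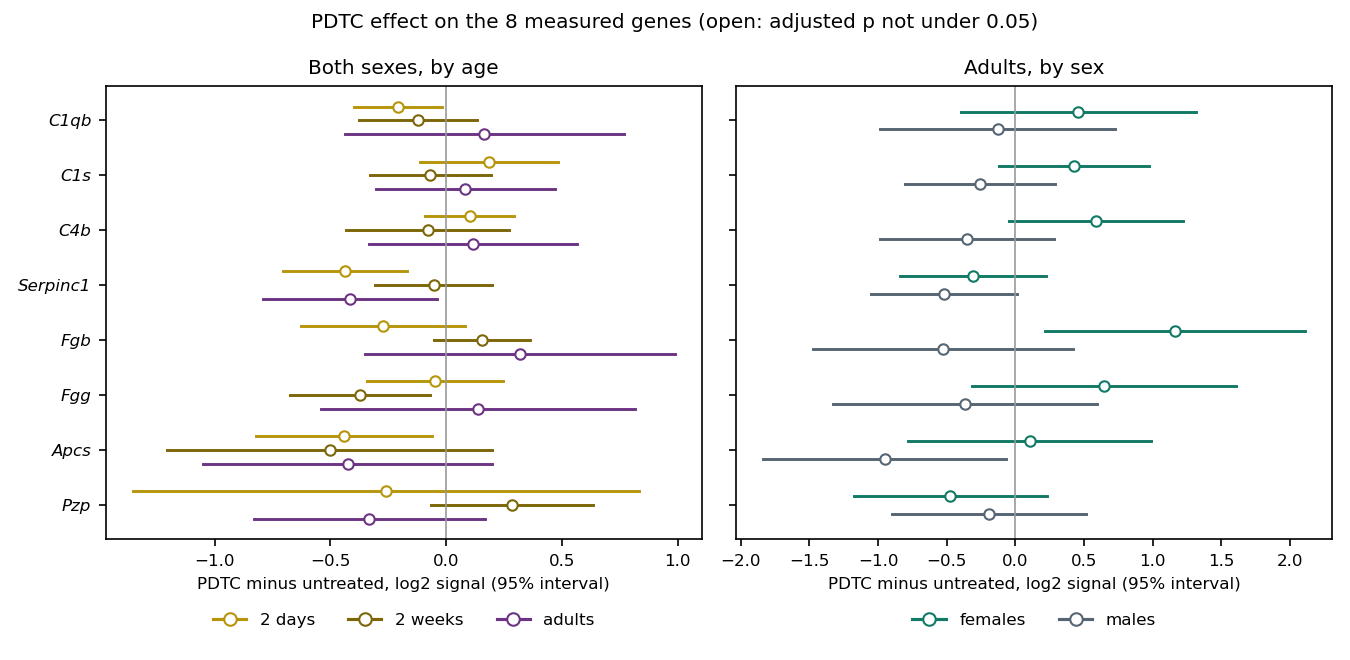
PDTC minus untreated in log2 normalized signal (horizontal axes) for the 8 genes (vertical axis), with 95% intervals from the limma fit, for both sexes at 3 ages (left) and for adult females and males (right). All points are open, since no adjusted p was under 0.05, and the interval of Fgb in adult females, from 0.21 to 2.11, lies above 0.

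The other lists gave 0 calls for PDTC at each age, among them 21 complement, 17 coagulation and 11 plasma protein genes in adults, with medians of 0.03, -0.10 and 0.16 against -0.0062 over all probes. The 8 macrophage and 7 tubular injury genes had medians of 0.09 and 0.19 in adults.

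Among the 20 adult kidneys, after the mean of each group was taken away, the genes went with different partners. These Pearson correlations describe arrays that share slides and processing, and carry no p. C1qb went most with C1qc (r = 0.97), Laptm5 (0.89) and Ctss (0.89), which are known from macrophages and lysosomes. C1s went most with Cfb (0.93), the protease of the alternative pathway, and with Emilin1 (0.92) and Serpinb6b (0.91). Serpinc1 went most with F13b (0.89), Hsd17b2 (0.87) and Cryl1 (0.86), and Apcs with Slc7a7 (0.90), Lgmn (0.88) and Aifm2 (0.86). For Pzp these were Dmac2l (0.88), Myo1e (0.83) and Vldlr (0.80), for Fgg Gpx2 (0.80), Tubb6 (0.80) and Eno2 (0.75), for Fgb Mblac1 (0.84), Pqbp1 (0.83) and Rpl30 (0.81), and for C4b Rpl22, Rps14 (both 0.79) and Rpl17 (0.78).

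Among the 8 genes themselves C1qb and C1s had r = 0.80, Serpinc1 and Apcs 0.70 and Fgb and Fgg 0.68 over the same 20 kidneys. C4b had 0.67 with C1qb but 0.33 with C1s, and Pzp had at most 0.40 with any of the others. PDTC male 4 is low for Serpinc1, Apcs, Fgb and Fgg, so it contributes to the correlations among them.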

How the data were processed

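Kidney RNA of 59 rats from 12 groups went onto Illumina RatRef-12 arrays, with extraction by TRIzol and NucleoSpin and labelling by the TotalPrep kit per the labels' protocols. The deposited table gives 1 raw intensity per probe and array. Beside each intensity stands, per the file headers, a detection p-value, which no source describes further. It was read as two-sided because on all 59 arrays it was small at both ends of the signals: the median over the 100 dimmest probes was at most 3.85e-13, and the highest values stood where 26.3 to 37.3% of probes were dimmer. The background, the filter and the counts of arrays above background rest on that reading. The authors' value table holds deposited log2 values with the rank order of the intensities (rank correlation of 1), for which no label names a normalization. Each array's values differed from those of all others.

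Background was the median of the 50 probes with the highest detection p-value. The planned neqc assumes one-sided p-values, so normexp with this background was used, an offset of 16 was added, arrays were quantile-normalized and log2 was taken. Probes above background on at least 4 arrays of a fit were tested with limma 3.58.1 in R 4.3.3 (lmFit, eBayes, Benjamini-Hochberg over all of them). Each age had a fit of its groups; comparisons of ages within a treatment used its groups at both ages. Age and treatment differences average the sexes equally. Scripts were tested on simulated data.

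The members, the 8 gene lists and the rule for named genes were chosen with earlier results of these data known. The rule took all member probes, up to 3 called genes per direction with the smallest p from each list, and for likeness the 3 genes with the highest r. Afp, Alb and Ahsg beside single rats were named after their values were seen. Arrays, not depth, limit the precision. Alternatives were no normexp, scaling to 1 median, no filter, slide as a fixed term or random block, the deposited log2 values, 1 fit of all arrays, array weights and leaving out each array; leaving out 2 rats with albumin signal was added after the data were seen. Replicates were numbered in accession order.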

Additional observations from a re-analysis of the deposited data

Results flagged for a closer look

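Of 95 sets of values tested for a rat far from its group, 6 had one, where chance gives about 1 in 20. Fgb in PDTC females of 2 weeks was 8.01 in female 5 and 8.34 to 8.49 in the others. Fgb in untreated adult males was 7.12 in male 3 and 8.48 to 9.02 in the others. Fgg in PDTC adult females was 5.80 in female 3, not above background, and 7.38 to 7.97 in the others. Pzp in untreated males of 2 days was 4.96 in male 2 and 7.34 to 7.57 in the others, which belongs to the split of Pzp at that age. Serpinc1 in PDTC males of 2 days was 4.78 in male 3, not above background, and 5.11 to 5.17 in the others. Serpinc1 in PDTC adult males was 8.04 in male 4 and 9.39 to 9.65 in the others, on slide 9.

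The sex difference of C4b in untreated rats differed between adults and 2 weeks by -1.53 ± 0.31 (SE, limma adjusted p = 0.0117), with all 5 adult females below all 5 adult males. The age of the adult sexes differs, and its part was not tested.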

How the results depend on the processing

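Of 27 differences called for the 8 genes, 763 values under alternatives were computed: 730 kept direction and call, 33 kept direction without the call and 0 reversed. The cause was not tested where a call changed. Between PDTC rats of 2 weeks and 2 days, 1 fit of all 59 arrays called 3 genes (C4b, C1s and Pzp) in place of 6. That fit called 1 gene, Fgb, for the adult PDTC effect of females minus males and 1, Fgb, for females minus males in PDTC adults, where array weights called 1, Pzp; the main count was 0 in each. For females minus males in untreated adults, scaling to 1 median called 0 in place of 1, and leaving out each array gave 0 to 1. For the sex difference of adults minus 2 weeks in untreated rats, scaling and slide as a fixed term called 0 in place of 1. Scaling to 1 median moved the median of all probes by -0.66 in PDTC and -0.57 in untreated adults minus 2 weeks, and the median of the 8 genes relative to it was 2.60 in PDTC rats. Of 181 uncalled differences the sign changed in 20 with array weights, in 17 with scaling to 1 median and in 17 of 180 with slide as a fixed term. Adults minus 2 weeks in PDTC rats could not be fitted with slide as a fixed term, since no slide held both. No paired analysis was possible because each rat gave 1 array at 1 age and which rats were littermates is unknown here. Signals near background (Serpinc1, Fgg and Pzp at 2 weeks) limit the sizes of their differences.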
